A study of Mus musculus with 2 samples.

Results

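Hmga2 peaks that lay in short local chains were described in epiblast-like cells (EpiLCs). A chain was a run of 3 or more peaks in which each centre lay within 10 kb of the next one. The members were chosen by position in the peak list alone. Chains were taken on 18 autosomes, 1 to 19 without 14, and only where the 1 Mb bin of the first peak held under 30 peaks, so that megabases crowded with Hmga2 were left out. This gave 1950 peaks in 591 chains, out of 34597 peaks in the list. The other 1851 chained peaks were left out by the rule, 336 of them on chromosome 14 and 1515 in chains that began in a bin of 30 or more peaks. The same bins held 23888 unchained peaks, of which 18573 stood alone and 5315 formed pairs, and these are the comparison set. Chained peaks were thus 7.55% of the 25838 peaks of these bins.

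The data come from 1 chromatin immunoprecipitation and sequencing (ChIP-seq) experiment with an antibody against Hmga2 and 1 input library, chromatin without antibody. Both were made from E14Tg2a, a mouse embryonic stem cell line, induced into EpiLCs on a basement membrane matrix with Activin A and bFGF. The methods of the study instead give induced pluripotent stem cells, turned into epiblast stem cells, as the source of the chromatin, and the names used here are those of the labels. The ChIP was done once, so the values have no replicate error and the groups of peaks were compared without a test. Intervals of shares and medians cover counting error over peaks only, and peaks of 1 library, above all those of 1 chain, are not independent.

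Hmga2 is an architectural chromatin protein of the high mobility group. It holds the minor groove of A+T-rich DNA through short basic motifs called AT-hooks and bends the DNA instead of reading a long fixed sequence. AT-hook proteins can bind several A/T runs that lie near each other on the same stretch of DNA. Hmga2 is abundant in embryonic cells and low in most adult tissues. The chains ask at which short scale Hmga2 recurs along chromosomes where it is otherwise sparse. The bases and genes under the chains were not analysed here, because the coordinates of the list and the GRCm38 genome used here belong to different builds, and no sequence is therefore shown.

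Most chains held 3 peaks. Their span is bounded by the rule, since consecutive centres lie at most 10 kb apart, so the values below describe the chains as defined. Of the 591 chains, 449 held 3 peaks, 113 held 4, 25 held 5, and the longest were 2 chains of 6 and 2 chains of 7 peaks. From the first to the last centre a chain spanned a median of 10.4 kb (quartiles 7.05 and 13.6 kb), with a range of 1.38 to 30.3 kb. The peaks themselves covered a median of 7.41% of that stretch, so most of a chain was DNA between peaks. The distance between consecutive centres had a median of 4.37 kb (quartiles 2.23 and 6.91 kb). Between the edges of neighbours, the shortest distance was 305 bp. Edges were under 1 kb apart in 169 of the 1359 intervals, and 156 chains had such an interval.

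Chained peaks were more frequent than the number of peaks per bin gives by itself. As a reference, the centres of each 1 Mb bin were placed at random positions in that bin, 100 times over, which keeps the differences between megabases. The placements held 1259 to 1675 chained peaks, with a mean of 1438, whereas the list held 1950, or 1.36 times that mean. The number of chains, 591, compares with 393 to 527 in the placements. Larger chains stood out more than the smallest ones. Chains of 3 numbered 449 against 316 to 443 in the placements, 1.19 times their mean, while chains of 4 numbered 113 against 43 to 77, 1.88 times the mean, and chains of 5 numbered 25 against 4 to 19, 2.28 times the mean. The 4 chains of 6 or more peaks lay within the range of the placements, 0 to 7. Peaks in pairs, which are no chain, were only 1.05 times the mean, with 5315 against 4894 to 5283. No p-value is attached to these ranges, since the placements describe 1 list. Stretches within a bin on which no read could be placed also bring peaks together, and their part was not tested. With placements confined to 250 kb windows the ratio fell to 1.18. With neighbours under 1 kb apart merged in the list it fell to 1.15, but placed centres were not merged, so list and placements were treated unlike there.

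The ratio of chained peaks to the mean of the placements was highest in bins of 5 to 9 peaks. In bins of 5 to 9 peaks, 104 of 4331 peaks (2.40%, 95% Wilson interval 1.99% to 2.90%) were chained, 2.22 times the mean of the placements, which reached at most 1.78%. In bins of 10 to 14 peaks the share was 5.14%, 1.70 times the mean. The ratio was 1.37 in bins of 15 to 19 peaks and 1.34 in bins of 20 to 24. The gap in share did not follow the ratio. In bins of 5 to 9 peaks the share was 2.40%, against a mean of 1.08% in the placements. It was 5.14% against 3.03% in bins of 10 to 14 peaks and 8.02% against 5.85% in bins of 15 to 19. In bins of 20 to 24 it was 12.3% against 9.18%, and in bins of 25 to 29 it was 14.6% against 13.3%. In bins of 25 to 29 peaks, 14.6% of the peaks were chained, and this share lay inside the range of the placements, 10.9% to 16.1%. Bins of 1 to 4 peaks held no chained peak among 643, which allows a share of up to 0.594% by the upper Wilson bound, and the placements had a mean of 0.156% there, with a range of 0% to 1.40%. From 5 peaks per bin upwards, the share of chained peaks rose with occupancy, as it did in the placements, and the ratio to the placements fell.

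**Figure D1:**
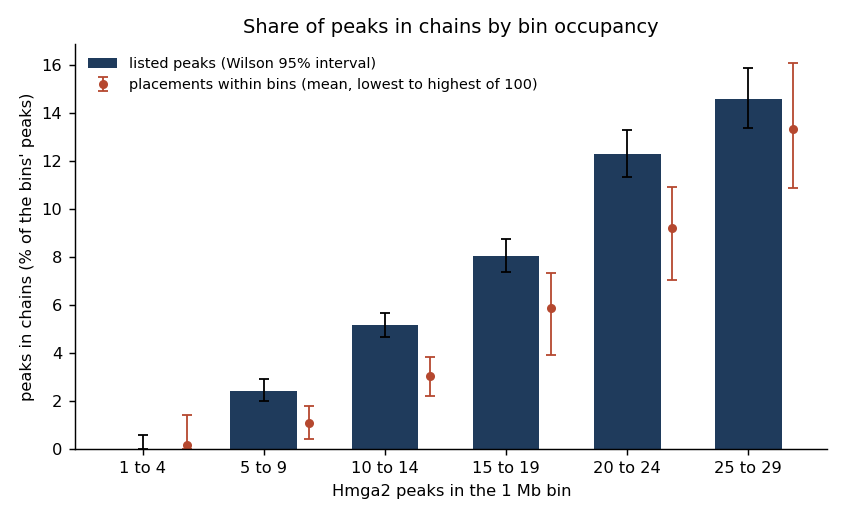
Share of Hmga2 peaks that lay in chains, in percent of the peaks of the bins (vertical axis), by the number of peaks in the 1 Mb bin (horizontal axis). Bars are the list with 95% Wilson intervals, and dots with lines are the mean and the range of 100 placements within bins. The bars lie above the range from 5 to 24 peaks per bin and inside it at 25 to 29.

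Chain starts were found in 481 of the 2102 bins with under 30 peaks. A single chain began in 385 of these bins, 2 or more began in 96, and the most was 4. The placements gave 51 to 88 bins with 2 or more chain starts. The median bin of a chain held 19 peaks (quartiles 14.5 and 24), and the poorest held 5.

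Within chains, distances of a few kilobases were more numerous than in the placements. The list held more distances within chains in all, 1359 compared with a mean of 988 in the placements, a ratio of 1.38, against which the classes are to be read. The median distance, 4.37 kb, was slightly below the range of the placements, 4.40 to 5.13 kb. The list held 193 distances of 1 to 2 kb, 1.84 times the mean of the placements, whose highest value was 129. Distances of 2 to 3, 3 to 4 and 4 to 5 kb were 1.54, 1.47 and 1.73 times the mean and also exceeded every placement, although the first 2 of these ratios were near that of all distances. Above 5 kb the classes lay inside or close to the ranges. Those of 6 to 7 kb, with 130 against at most 124, and of 9 to 10 kb, with 127 against at most 116, exceeded them slightly, and that of 7 to 8 kb was 0.976 times the mean. Distances under 1 kb, 112 in number, did not stand out (82 to 131 in the placements). This class is bounded from below, because listed peaks have a length and no neighbours in chains had edges closer than 305 bp, whereas placed centres could fall together.

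**Figure D2:**
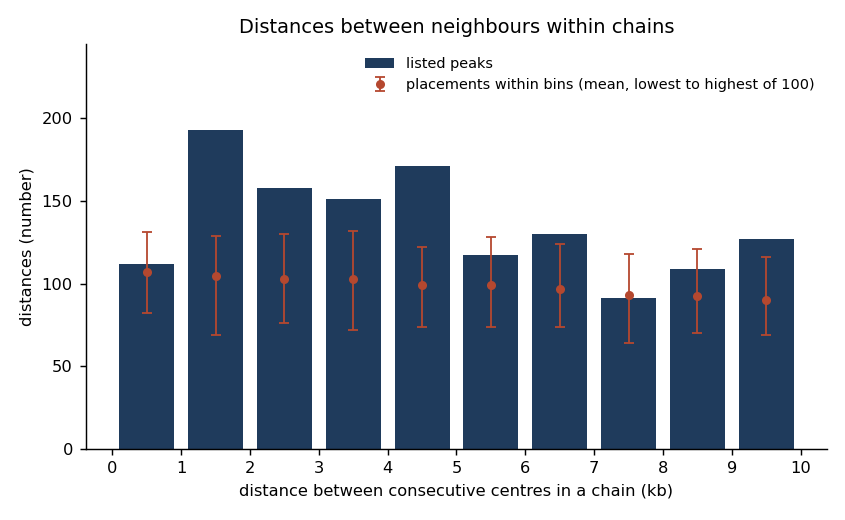
Number of distances between consecutive peak centres within chains (vertical axis) in classes of 1 kb (horizontal axis, kb). Bars are the list, and dots with lines are the mean and range of 100 placements within bins. The bars exceed every placement from 1 to 5 kb, with 193 distances at 1 to 2 kb, and are inside the range under 1 kb.

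Chains occurred on each of the 18 autosomes. Their number ranged from 10 on chromosome 19 to 61 on chromosome 3, with 58 on chromosome 1 and 53 on chromosome 2. As a share of the peaks of the same bins, chained peaks were rarest on chromosome 19, at 5.33% (95% Wilson interval 3.80% to 7.43%), and most common on chromosomes 18 and 3, at 9.92% (8.32% to 11.8%) and 9.79%. The observed number was above the mean of the placements on 17 chromosomes and above each placement on 6 of them, which are 1, 3, 7, 9, 13 and 18. Chromosome 7 had the highest ratio, 2.24, with 87 chained peaks against 6 to 68 in the placements, and its bins held 8.79 peaks on average, the fewest of the 18. Chromosome 16, with 64 chained peaks against a mean of 66.3, was the one below it. Chromosome 11 had 28 chains and a ratio of 1.32, and chromosome 8 had 29 chains and a ratio of 1.16, both within the range of their placements. Chains were not gathered at chromosome ends. Of the chains, 7.45% began within 10 Mb of the first peak of the chromosome and 5.75% within 10 Mb of the last, compared with 7.81% and 6.90% of the unchained peaks.

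**Figure D3:**
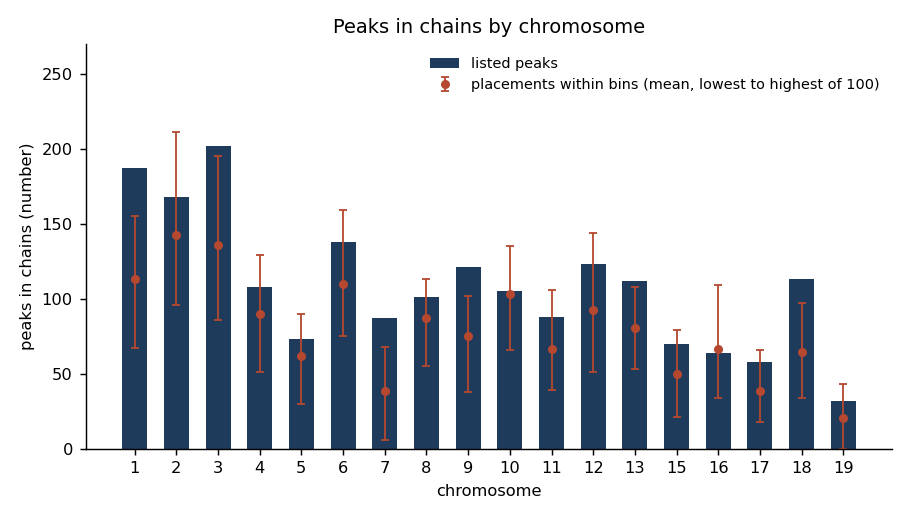
Number of peaks in chains (vertical axis) on each autosome used (horizontal axis). Bars are the list, and dots with lines are the mean and range of 100 placements within bins. The bars pass the range on chromosomes 1, 3, 7, 9, 13 and 18, and only chromosome 16 is below the mean.

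The 2 chains of 7 peaks held no peak with a pileup above 7.78. The values used from here on are the pileup, which is the level of overlapping ChIP fragments, averaged over the peak in the broad mode of the caller and given in fragments without being a count, the fold over the local background, and the p and q of the peak caller. Fold, p and q were deposited with moved decimal points, which were restored. On chromosome 9 at chr9:82787858-82812153, in a bin of 25 peaks, 7 peaks (33650 to 33656) had pileups of 7.78, 5.77, 7.23, 5, 7.32, 5 and 5.78. The folds of these peaks lay between 3.01 and 4.76, and 3 of the 7 had a q under 0.05. The first peak stood 9.04 kb before the rest, and the centres of the third and the fourth were 0.61 kb apart. The chromosome 7 chain at chr7:121653014-121683546 was the longest by span, 30.3 kb, and had pileups of 7.51, 6.86, 6.37, 5, 5.97, 6.27 and 5.1 in its 7 peaks. No edges were closer than 1616 bp there, and 5 of the 7 peaks had a q under 0.05. Its bin held 24 peaks in all. The chains of 6 peaks, chr18:36740910-36758030 and chr16:43169383-43195400, had mean pileups of 7.11 and 6.28, with highest pileups of 9.73 and 8.16. Over the 151 peaks in chains of 5 or more, the median pileup was 6.37.

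A mean pileup of 10 or more was found in 13 of the 591 chains, 11 of them chains of 3 peaks with means of 10.3 to 13.6. In 6 of these 11 every peak had a pileup of at least 8. Every peak reached 10 in 2 chains of any size, while 98 chains held at least 1 such peak. The chain on chromosome 8 at chr8:108074945-108085381 had the highest mean, with pileups of 17.9, 22.0, 17.5 and 16.0 in its 4 peaks. All 4 had folds between 7.30 and 9.89 and a -log10 p of at least 14.2, over a span of 10.0 kb. Its second peak, 32370, had the highest pileup and the highest -log10 p, 20.9, of all chained peaks. No other chain of 4 or more peaks had a mean pileup above 10.9, compared with 18.4 here. The next of that size was also on chromosome 8, at chr8:22128636-22149535 in a bin of only 6 peaks, with a mean pileup of 10.9 and a highest pileup of 14.3. There the background was high as well, 2.05 to 2.47 fragments, and the folds were 3.12 to 4.41. The chromosome 3 chain at chr3:50388090-50408940 mixed 1 high peak with lower ones, as its pileups were 17.8, 5, 9.39 and 6.87. The same was seen in the chains of 3 that held the peaks next in -log10 p, 19.5 and 19.4. Both were on chromosome 10. At chr10:97280389-97293332 the highest pileup was 18.3 and the lowest 5, and at chr10:127615259-127629852 they were 20.5 and 6.99.

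**Figure D4:**
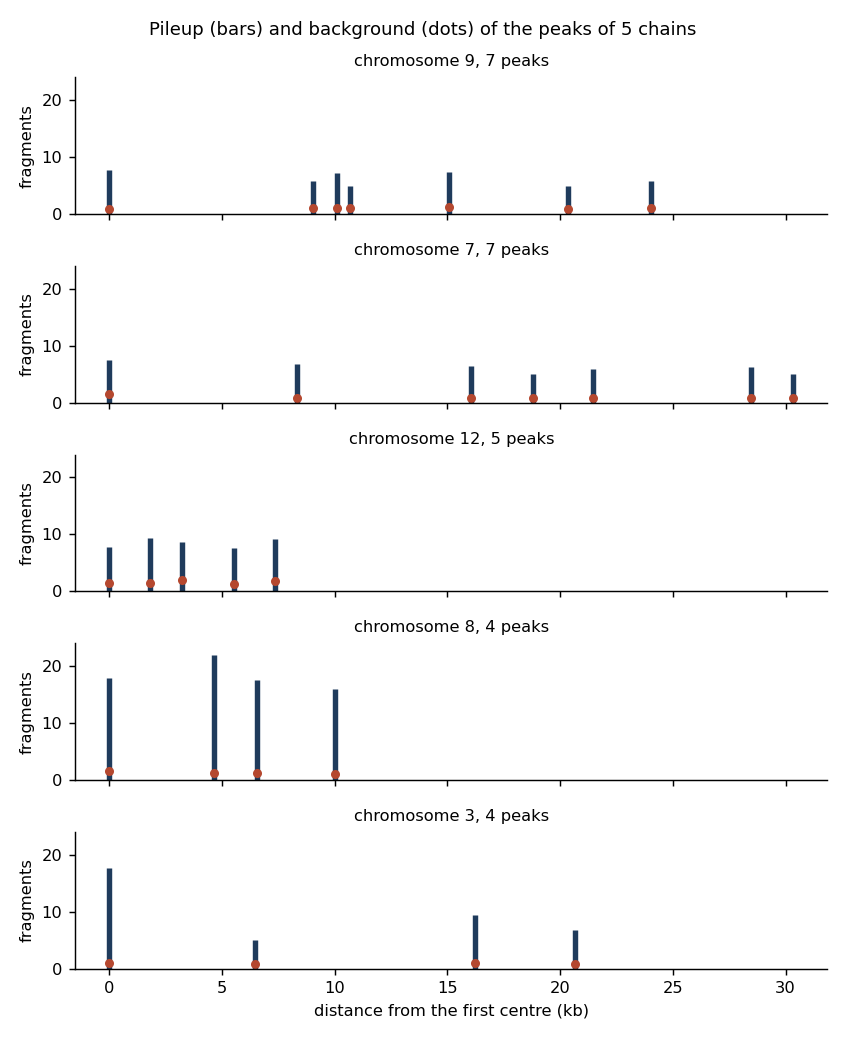
Pileup (bars, fragments, vertical axis) and background (dots, fragments) of each peak in 5 chains, against the distance from the first centre of the chain (horizontal axis, kb). The chromosome 9 and 7 chains hold 7 peaks of 5 to 7.78 fragments, the chromosome 8 chain 4 peaks of 16.0 to 22.0, and the chromosome 3 chain 1 peak of 17.8 beside lower ones.

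The tightest chains of 5 or more peaks spanned 7.03 to 11.3 kb. In the chromosome 12 chain at chr12:8637923-8646106, 5 peaks spanned 7.37 kb and covered 44.7% of the stretch. Its first peaks were 1460 and 1512 bp long, the latter the longest of all chained peaks, and the pileups were even, 7.78, 9.36, 8.69, 7.65 and 9.13. The edges of the 2 long peaks were 337 bp apart, and the background was between 1.23 and 1.93 fragments. The chains chr18:71890016-71897298 and chr16:86208031-86219505, with 5 peaks each, covered 20.1% and 7.25% of their stretch. Their mean pileups were 6.12 and 7.12.

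Peaks in chains were not higher than unchained peaks of the same bins. Their median pileup was 6.30 (exact 95% binomial interval of the median 6.21 to 6.40, quartiles 5.60 and 7.48), compared with 6.41 (6.39 to 6.43) for unchained peaks. The highest chained peak reached 22.0 and the highest unchained one 44.2. These maxima come from sets of unlike size, 1950 and 23888 peaks, and a larger set tends to reach a higher maximum. The median fold was 3.69 (3.65 to 3.73) in chains and 3.78 (3.77 to 3.79) outside, and it was lower in chains on 15 of 18 chromosomes. Between bins with like numbers of peaks, the intervals of the median fold overlapped in each of 3 classes. It was 3.74 (3.62 to 4.00) in chains and 3.90 (3.86 to 3.93) outside in bins of 1 to 9 peaks, 3.72 (3.66 to 3.77) and 3.78 (3.77 to 3.80) in bins of 10 to 19, and 3.66 (3.64 to 3.72) and 3.70 (3.68 to 3.72) in bins of 20 to 29. A q under 0.05 was reached by 1406 of the 1950 members, 72.1% (95% Wilson interval 70.1% to 74.0%), which compares with 72.5% of the whole list and 73.5% (72.9% to 74.0%) of the unchained peaks. By this measure the chains were near the list as a whole. Against the unchained peaks of only those bins that hold a chain start, the gap in pileup was gone, with a median of 6.30 in both. The share with a q under 0.05 was slightly higher in chains there, 72.1% compared with 71.3% (70.2% to 72.4%), and the intervals overlapped. Between bins with like numbers of peaks that share was also higher in chains in 2 of 3 classes, with overlapping intervals in each. It was 80.8% and 77.9% in bins of 1 to 9 peaks, 72.7% and 73.3% in bins of 10 to 19, and 70.7% and 70.4% in bins of 20 to 29, chained and unchained peaks in that order. All peaks had a q under 0.05 in 207 chains, 35.0%, and none had in 10 chains.

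The strongest peaks were less frequent in chains. A p of at most 1e-08 was found in 111 members, 5.69% (4.75% to 6.81%), compared with 7.73% of the list and 8.63% (8.28% to 8.99%) of the unchained peaks. A q under 1e-05 was found in 87 members, 4.46% (3.63% to 5.47%), compared with 6.01% of the list and 6.75% (6.44% to 7.07%) of the unchained peaks. Peaks in pairs lay between single and chained peaks, with 7.64% at a p of at most 1e-08 compared with 8.92% and 5.69%. Chained peaks lie in fuller bins by construction, and strong peaks were less frequent in fuller bins, so the groups were also compared at like occupancy. The share at a p of at most 1e-08 was 8.65% in chains and 11.8% outside in bins of 1 to 9 peaks. It was 7.14% (5.61% to 9.05%) and 8.62% (8.15% to 9.13%) in bins of 10 to 19, and 4.09% (3.02% to 5.52%) and 6.22% (5.65% to 6.83%) in bins of 20 to 29. The share was lower in chains in the 3 classes, and the intervals were apart only in bins of 20 to 29.

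Peaks in chains were longer. The median length was 202 bp (195 to 209 bp) in chains and 183 bp (181 to 185 bp) outside, and it was higher in chains on 15 chromosomes. More than 500 bp were covered by 92 chained peaks, 4.72% (3.86% to 5.75%), and by 2.98% (2.77% to 3.20%) of the unchained ones. Peaks in pairs lay between single and chained peaks in length as well. Their median was 189 bp (186 to 193 bp), compared with 181 bp (180 to 183 bp) for single peaks, and 3.88% and 2.72% were over 500 bp. The median did not rise with each step in chain size. It was 202 bp in chains of 3, 206 bp in chains of 4 and 188 bp (166 to 223 bp) in chains of 5 or more. Over 500 bp were 4.38%, 5.53% and 5.30% of their peaks. The shortest length of the list, 134 bp, was less common in chains, with 18.5% (16.9% to 20.3%) compared with 21.4% (20.9% to 21.9%). The median was higher in chains at each occupancy, but the intervals were apart only in bins of 10 to 19 peaks. There it was 197 bp (187 to 208 bp) in chains and 182 bp (180 to 185 bp) outside. In bins of 1 to 9 peaks it was 197 bp (170 to 233 bp) and 175 bp (171 to 177 bp). In bins of 20 to 29 it was 207.5 bp (196 to 218 bp) and 193 bp (189 to 196 bp), so that the intervals met at 196 bp.

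**Figure D5:**
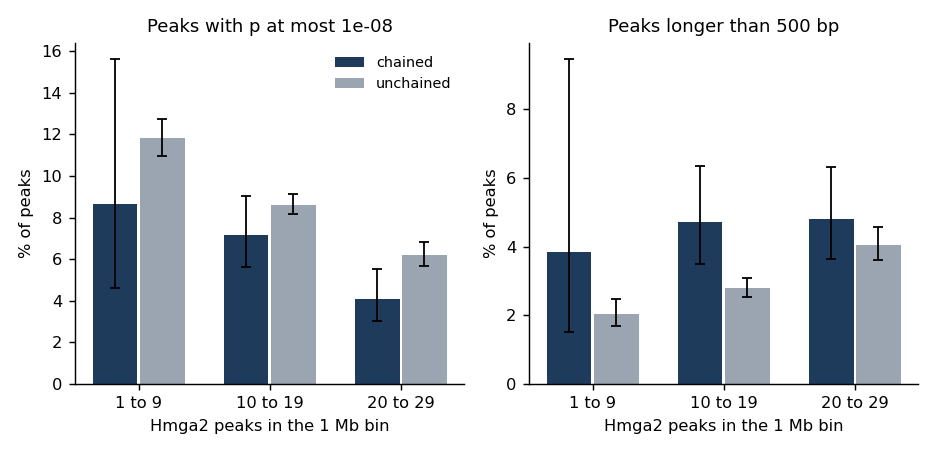
Percent of peaks (vertical axes) with a p of at most 1e-08 (left) and with a length over 500 bp (right), for chained and unchained peaks in 3 classes of bins by number of peaks (horizontal axes). Lines are 95% Wilson intervals. Chained peaks have lower shares of strong peaks, 4.09% compared with 6.22% in bins of 20 to 29, and higher shares of long ones, 4.72% compared with 2.79% in bins of 10 to 19. The intervals are apart in these classes and overlap in the others.

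The local background, which the peak caller derived from the input, was slightly higher at chains. Its median was 0.889 fragments (0.880 to 0.897) in chains and 0.873 (0.871 to 0.876) outside, and it was higher in chains on 15 chromosomes. The lowest background of the list is 0.843, and 38.8% of the chained peaks (36.6% to 41.0%) lay within 1% of it, compared with 43.2% (42.6% to 43.9%) of the unchained peaks. By occupancy, the intervals were apart only in bins of 10 to 19 peaks, with medians of 0.901 (0.884 to 0.919) in chains and 0.874 (0.871 to 0.878) outside. In bins of 1 to 9 peaks, with 104 chained peaks, the medians were 0.960 (0.884 to 1.01) and 0.882 (0.877 to 0.888). In bins of 20 to 29 they were 0.876 (0.866 to 0.890) and 0.865 (0.860 to 0.869). A higher background lowers the fold at a given pileup, and its part in the folds of chained peaks was not tested.

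Peaks of the same chain resembled each other in pileup only to a small degree. The highest pileup of a chain was a median of 1.38 times the lowest (quartiles 1.22 and 1.63). In chains of 3 it was 1.34 times, and in sets of 3 consecutive unchained peaks of a bin 1.42 times. No pileup of the list was below 5, and the part of this lower bound in the likeness of pileups was not tested. The intraclass correlation, the part of the variance of log2 pileup that lay between chains, was 0.168 over the 591 chains and 0.135 without the strong chromosome 8 chain. In chains of 3 it was 0.144. In 7254 sets of 3 consecutive unchained peaks of a bin, which spanned a median of 111 kb compared with 9.26 kb for the chains of 3, it was 0.064. Background was more alike within chains, with 0.302 in chains of 3 compared with 0.094 in the unchained sets. Whether neighbouring peaks shared the input reads behind this value was not tested. For length the values were near 0, -0.00093 in chains of 3 and 0.0023 in the unchained sets. These values describe peaks of 1 library and carry no test.

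Within a chain, no position stood out. In the 449 chains of 3, the median pileup was 6.31 in the first, 6.41 in the middle and 6.31 in the last peak. The middle peak was the highest in 164 chains, 36.5% (95% Wilson interval 32.2% to 41.1%), while equal positions would give 33.3%. It was the longest in 32.5% (28.3% to 37.0%). Over all chains, 1182 end peaks and 768 inner peaks had median lengths of 199 and 206.5 bp and median pileups of 6.26 and 6.39.

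Values next to the limits of the rule were as follows. The 315 members that would be in no chain at a limit of 9 kb had a median pileup of 6.52 and a median length of 204 bp. The 300 unchained peaks that would join a chain at 11 kb had 6.20 and 186.5 bp. Chains that began in bins of 28 or 29 peaks held 189 peaks with a median pileup of 6.05, and those that began in bins of 30 or 31 held 194 with 6.11.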

How the data were processed

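Hmga2 ChIP and input DNA of E14Tg2a cells were sequenced by the authors, who aligned the reads with BWA and called peaks with MACS2 in its broad mode on the 1 ChIP library against the input. Nothing was pooled. In the deposited list a peak has coordinates, a length in bp, the pileup as a signal, and 3 score columns named as fold, -log10 p and -log10 q. Read totals were not used here.

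The deposited score columns had moved decimal points, since 34258 of the 34597 fold values exceeded the pileup plus 1, the largest value possible. The points were placed so that the fold, the pileup and the Poisson p agreed, and so that -log10 q lay below -log10 p by at most 8. Between restored and Poisson p, the median difference in -log10 p was 0.473% and the largest 13.7%. The background was computed as (pileup + 1) / fold - 1, an approximation, as broad mode averages these values over each peak. Pileups of peaks of unequal length are therefore means over unequal stretches.

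Per the labels the build is mm9, and the methods also name GRCm38. As 136 peaks end beyond GRCm38 chromosome ends, the A+T comparison, planned for the case of a matching genome, was not run and no genes were assigned. Coordinates are those of the list, from 1.

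Peaks were sorted by centre and chained with numpy 2.4.6 and pandas 2.3.3 in Python 3.11.15, and intervals were taken with scipy 1.17.1. Placements drew as many centres as listed in each 1 Mb bin, bounded by the first and last peak of a chromosome, 100 times. The code was tested on simulated data. Named chains are the 5 with most peaks, the 3 shortest of at least 5 peaks, the 3 of highest mean pileup of at least 4 peaks, and those of the 3 members with the highest -log10 p. The chain rule and lists were chosen with earlier results of these data known. The comparison at like occupancy, and those of peaks within a chain, were added after seeing the data.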

Additional observations from a re-analysis of the deposited data

How the results depend on the processing

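Of 71 values recomputed under an alternative, 40 stayed within 1.5 times the count or within the interval of the value as reported, and the other 31 follow. The ratio to the placements stayed above 1 in each. Where only bins that hold a chain start were compared, the order of chained and unchained peaks was lost for pileup. For the share with a q under 0.05 the order turned there, with overlapping intervals. For that share it also turned in bins of 1 to 9 and of 20 to 29 peaks, again with overlapping intervals. By construction, the 1950 peaks in 591 chains became 722 in 229 with centres within 5 kb, 5414 in 1522 within 20 kb, 603 in 142 with at least 4 peaks, 972 in 299 in bins with under 20 peaks, 824 in 258 with peaks at a q under 0.05, and 120 in 39 at a fold of at least 4.

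The ratio of chained peaks to the mean of the placements, 1.36, was 1.75 within 5 kb, 1.95 with at least 4 peaks, 1.55 in bins under 20 peaks and 1.15 with neighbours under 1 kb apart merged, where placed centres were not merged. It exceeded each placement except at a fold of at least 4, where the ratio to the highest placement was 0.916.

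For chained peaks, the median pileup was 6.45 in bins under 20 peaks, the median fold 3.65 with at least 4 peaks, and the median background 0.902 with at least 4 peaks, 0.905 in bins under 20 peaks and 0.876 in bins of 20 to 29. For unchained peaks of bins that hold a chain start, the median pileup was 6.30, equal to that of chained peaks, the fold 3.73, the length 189 bp, the background 0.870 and the share with a q under 0.05 71.3%. For unchained peaks with no other centre within 10 kb, the fold was 3.79 and that share 74.1%. In bins of 20 to 29 peaks, an alternative chosen after seeing the data, the unchained peaks had a median fold of 3.70, a length of 193 bp and a background of 0.865. The cause of these moves was not tested.

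No paired analysis was possible because the list stems from a single immunoprecipitation. Pileups are low, so single peaks near the threshold, and chains that rest on them, are uncertain. The A+T content of the chains was not analysed here.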
